A study of Rattus norvegicus with 12 samples.

Results

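The genes described are those named for the small noncoding RNAs of the signal recognition particle (SRP), the 7SK complex, the Ro particle (Y RNAs) and the vault particle, in mitochondrial preparations of rat skeletal muscle. Genes were taken by name: Metazoa_SRP, or a name beginning with Rn7sl, 7SK, Rn7sk, Y_RNA, Vault or Vtrna, each Ensembl identifier counting as 1 gene. This gave 46 of the 30560 genes in the table. There were 27 SRP RNA genes (26 called Metazoa_SRP, plus Rn7sl1), 18 Y_RNA genes and 1 Vault gene. No row carried a 7SK, Rn7sk or Vtrna name, so 7SK RNA itself was not analysed here.

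These RNAs are made in the nucleus by RNA polymerase III, and none is encoded by mitochondrial DNA. SRP RNA, also called 7SL, is the scaffold of the particle that recognises signal peptides on growing proteins and docks their ribosomes at the endoplasmic reticulum. Mammalian genomes carry a few working 7SL genes and a large number of decayed copies. 7SK RNA holds the transcription elongation kinase Cdk9 inactive, Y RNAs bind the Ro60 and La proteins, and vault RNA is a small component of a large cytoplasmic particle whose shell is major vault protein.

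All 12 libraries came from hindlimb muscle of 1 male wild-type Wistar Kyoto rat aged 14 weeks, homogenised as 1 pool, with 3 aliquots for each of 4 preparations. IP_RNase held mitochondria captured on antibody-coated magnetic beads and treated with RNase A, which degrades unprotected RNA. IP_RNase_ProK had the same capture and RNase A plus proteinase K, a protease. The mitoplast_RNase group was made from bead-captured mitochondria by removal of the outer membrane, again with RNase A. The comparison group, crude_RNase, held mitochondria pelleted by differential centrifugation, also with RNase A. The aliquots share 1 animal and 1 homogenate, so every SD, SE and p-value covers only the spread between aliquots.

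Total counts were 3325430 to 4563254 in the 9 bead-captured libraries and 6583452 to 7123045 in crude_RNase. Libraries of crude_RNase were made from 6.3 ng of RNA and the others from 40 ng, so RNA input and preparation cannot be told apart. The 13 mitochondrial mRNAs took 3.997% ± 1.52 of counts in IP_RNase, 1.76% ± 0.294 in IP_RNase_ProK and 1.74% ± 0.207 in mitoplast_RNase, against 25.7% ± 2.97 in crude_RNase (SD, n = 3 each). Muscle fibre markers (9 of 11 found, none at 0) took 0.0568% to 0.0776% outside crude_RNase and 0.301% to 0.342% in it. Fibroblast markers (4 of 4) took 0.0313% to 0.0340% and 0.0796% to 0.0975%. As plain shares of all counts, markers of other cell types ran the opposite way. Endothelial genes (3 of 3) took 0.0234% to 0.0250% outside crude_RNase and 0.0106% to 0.0135% in it. Macrophage genes (3 of 3) took 0.0150% to 0.0189% and 0.00801% to 0.0104%. Erythroid genes (2 found) took 0.00653% to 0.00719% and 0.00352% to 0.00515%. Totals of crude_RNase were larger and held more mitochondrial mRNA, and marker shares were not worked out on another total. Their direction on another scale is therefore not given. The part of these shifts in the results below was not tested.

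SRP RNA took a far smaller part of the counts in every bead-captured preparation than in crude mitochondria. Over the 27 genes, CPM, counts scaled to 1000000 of the effective library size, summed to 103.8 ± 20.6 in IP_RNase, 84.3 ± 4.73 in IP_RNase_ProK and 96.8 ± 6.80 in mitoplast_RNase, against 2707 ± 784 in crude_RNase (SD, n = 3 each). These sums were 26.1-, 32.1- and 28.0-fold lower than in crude_RNase. As a plain share of all gene counts, SRP RNA was 0.0121% ± 0.00188, 0.0103% ± 0.000574 and 0.0117% ± 0.000809 in the 3 bead-captured groups in that order, and 0.152% ± 0.0256 in crude_RNase, so the shares were 12.5-, 14.7- and 12.9-fold lower. The single libraries did not overlap: the bead-captured ones summed to between 80.5 and 127.4 CPM, and the crude ones had 1812, 3272 and 3036 CPM. Mitochondrial mRNAs also took a smaller share in the bead-captured groups, at 3.997%, 1.76% and 1.74% against 25.7% in crude_RNase. In IP_RNase_ProK and mitoplast_RNase this share fell about as much as the SRP RNA share did, and in IP_RNase it fell less. The SRP RNA sum was not tested on a scale of mitochondrial mRNA. A fall of the sum relative to mitochondrial mRNA is therefore not shown for IP_RNase_ProK and mitoplast_RNase, and not tested for IP_RNase. Fewer SRP particles carried along with the mitochondria and less SRP RNA per mitochondrion cannot be told apart in such bulk samples.

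The fall was carried by a minority of the gene copies. Of the 46 genes, 33 had enough reads to be tested (25 SRP, 7 Y and the vault gene), and the 33 do not stand for all 46. The other 13 held 0 to 15 counts per library, and the Y_RNA gene ENSRNOG00000055551 had 0 in all 12, where a floor of 3 counts allows 0.421 to 0.902 per 1000000 counts. With edgeR's quasi-likelihood test and an adjusted p under 0.05, 12 of the 33 were lower in IP_RNase than in crude_RNase, where 5.11% of all genes tested were lower. In the same comparison 1 was higher (1.26% of all genes). In IP_RNase_ProK 12 were lower (5.03% of all genes) and 0 higher (1.45%), and in mitoplast_RNase 12 were lower (4.54%) and 0 higher (1%). The lower genes were the same 12 each time, 11 SRP RNA genes and 1 Y_RNA gene. The read filter can be passed mainly through the libraries where a gene is high, so such calls are not independent of it. Outside crude_RNase, ENSRNOG00000060374 had 3 to 7 counts and the Y_RNA gene ENSRNOG00000060430 2 to 12. ENSRNOG00000068144, the gene called higher, had 2 to 5 counts in crude_RNase. The 3 comparisons share the crude_RNase libraries and are not independent of each other. The median log2 fold change of the 33 was −0.44, −0.45 and −0.38 in IP_RNase, IP_RNase_ProK and mitoplast_RNase, and 0.01, 0.00 and 0.00 over all genes tested.

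**Figure D1:**
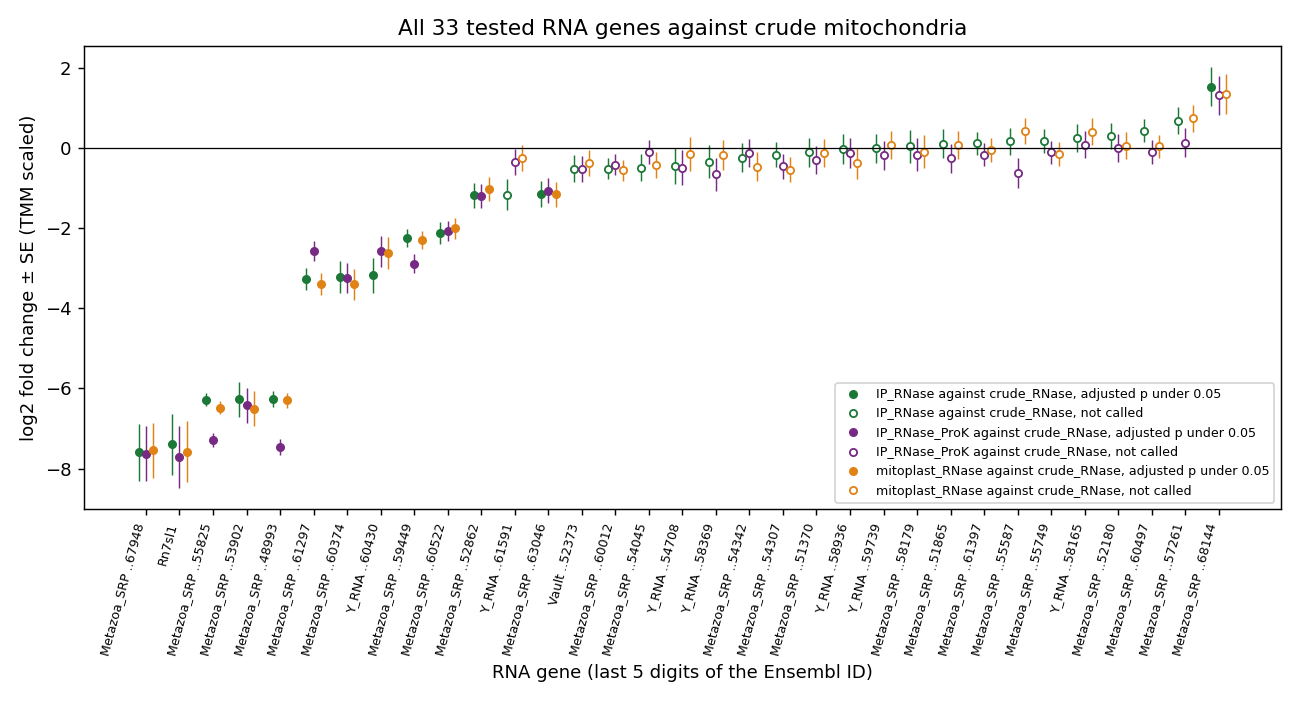
Log2 fold change against crude_RNase (y axis, with SE bars) of the 33 tested genes (x axis) in IP_RNase, IP_RNase_ProK and mitoplast_RNase; filled points have an adjusted p under 0.05. The 5 most counted SRP RNA genes lie between −7.72 and −6.26, 5 further genes between −3.40 and −2.01, and most others near 0.

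The most counted copy, Metazoa_SRP ENSRNOG00000048993, had 16, 13 and 94 counts in the IP_RNase libraries, 18, 20 and 24 in IP_RNase_ProK and 37, 66 and 34 in mitoplast_RNase, against 3053, 3316 and 2370 in crude_RNase. Metazoa_SRP ENSRNOG00000055825 had 22, 19 and 78, then 25, 23 and 21, then 37, 62 and 19 in the bead-captured groups in the same order, against 3528, 2592 and 2540 in crude_RNase. For both copies the lowest crude library was more than an order of magnitude above the highest bead-captured one. Among bead-captured libraries IP_RNase 3 was highest and mitoplast_RNase 2 next. Their log2 fold changes against crude_RNase were −6.26 ± 0.190 and −6.29 ± 0.161 in IP_RNase (SE; edgeR adjusted p = 1.52e-33 and 6.56e-37). In IP_RNase_ProK they were −7.46 ± 0.210 and −7.29 ± 0.174, and in mitoplast_RNase −6.29 ± 0.187 and −6.49 ± 0.161. Without IP_RNase 3 the IP_RNase values became −7.73 and −7.21.

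Rn7sl1 (ENSRNOG00000065968), the row that carries the 7SL gene symbol, had 13, 7 and 9 counts in IP_RNase, 11, 12 and 4 in IP_RNase_ProK and 6, 10 and 13 in mitoplast_RNase. In crude_RNase it had 320, 122 and 3857 counts, so all crude libraries were above all others, but with a wide spread among themselves. Its log2 fold change was −7.40 ± 0.766 in IP_RNase, −7.72 ± 0.768 in IP_RNase_ProK and −7.58 ± 0.760 in mitoplast_RNase (SE; edgeR adjusted p = 3.90e-11 for IP_RNase). Without crude_RNase 3 these values became −4.52, −4.84 and −4.70 and kept their calls.

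Metazoa_SRP ENSRNOG00000067948 had 4 to 12 counts in the bead-captured libraries, against 336, 3341 and 198 in crude_RNase. Its log2 fold changes were −7.59 ± 0.711, −7.63 ± 0.690 and −7.54 ± 0.686 in IP_RNase, IP_RNase_ProK and mitoplast_RNase (SE; edgeR adjusted p = 1.34e-12 for IP_RNase). Without crude_RNase 2 they became −5.23, −5.26 and −5.17. Metazoa_SRP ENSRNOG00000053902 had 13 to 33 counts outside crude_RNase, against 260, 2432 and 1375 in it, and changed by −6.27 ± 0.441, −6.42 ± 0.435 and −6.51 ± 0.441. Without crude_RNase 2 those changes became −5.53, −5.67 and −5.76. Both of these copies were highest in crude_RNase 2, whereas Rn7sl1 was highest in crude_RNase 3.

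**Figure D2:**
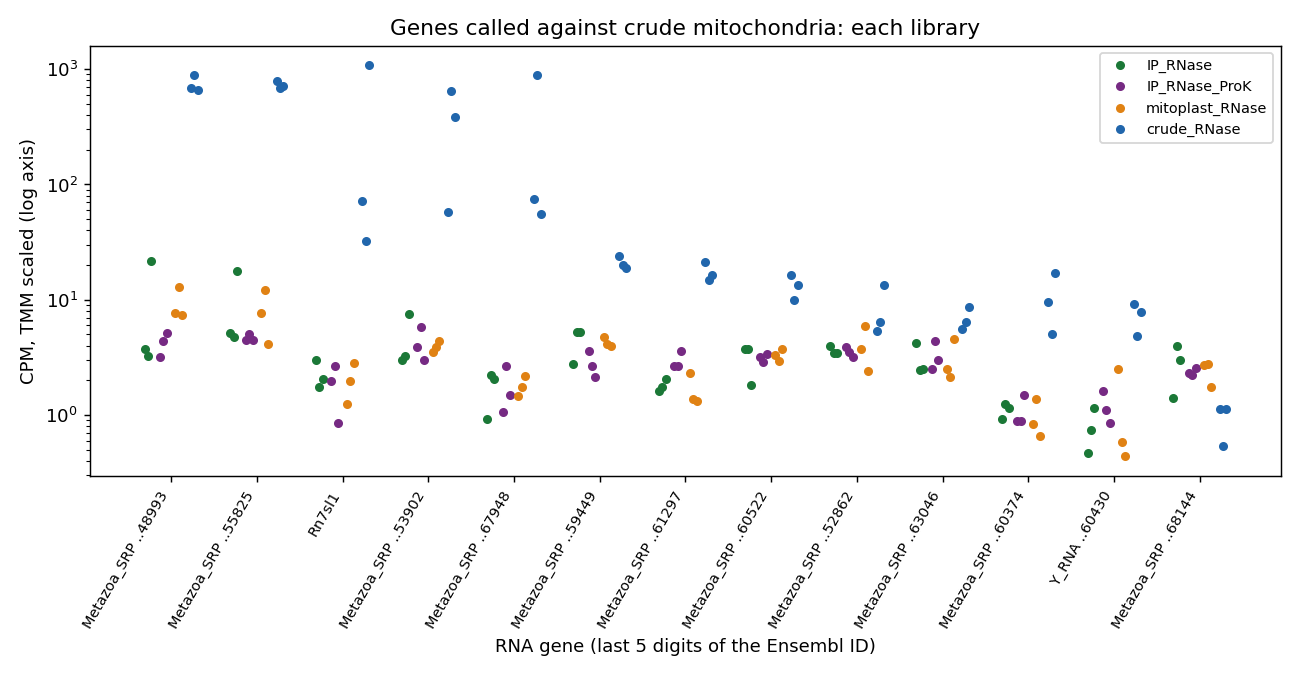
CPM of the 13 genes called in any comparison with crude_RNase (y axis, log scale), each point 1 library, with IP_RNase, IP_RNase_ProK and mitoplast_RNase left of crude_RNase. ENSRNOG00000048993 and ENSRNOG00000055825 are tight in crude_RNase (743 ± 123 and 730 ± 51.7 CPM, SD, n = 3), while Rn7sl1 spreads over 33.1-fold there.

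The mix of copies differed among the crude libraries more than their sum did. In crude_RNase the highest library was 33.1 times the lowest for Rn7sl1, 16.1 times for ENSRNOG00000067948 and 11.2 times for ENSRNOG00000053902, but 1.34 times for ENSRNOG00000048993 and 1.14 times for ENSRNOG00000055825. The sum of these 5 copies differed by 1.88 times, with 7497, 11803 and 10340 counts in crude_RNase 1, 2 and 3. Copies of 7SL can be alike in sequence, which was not checked for these genes. The sources used here do not give how reads with several matches were counted. Counts of single SRP copies are therefore uncertain. The sum does not depend on how reads were split among the copies, but it would miss reads left out for having several matches.

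The 5 most counted copies held 16.1% to 40.0% of SRP RNA counts in the bead-captured libraries, against 92.5%, 96.3% and 95.2% in crude_RNase. The 40.0% was IP_RNase 3, and the next highest was 31.3% in mitoplast_RNase 2. Summed over these 5, CPM was 27.3 ± 20.5 in IP_RNase, 16.7 ± 3.36 in IP_RNase_ProK and 25.1 ± 6.59 in mitoplast_RNase, against 2572 ± 787 in crude_RNase (SD, n = 3 each). The other 22 copies summed to 76.5 ± 2.31, 67.6 ± 1.81 and 71.7 ± 1.40 CPM in the bead-captured groups, against 135 ± 12.5 in crude_RNase. The other 22 thus made up most SRP RNA counts outside crude_RNase and a small part within it. The 5 copies were picked by mean count over all 12 libraries, a mean set mostly by crude_RNase. Their large share in crude_RNase therefore follows in part from that choice.

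**Figure D3:**
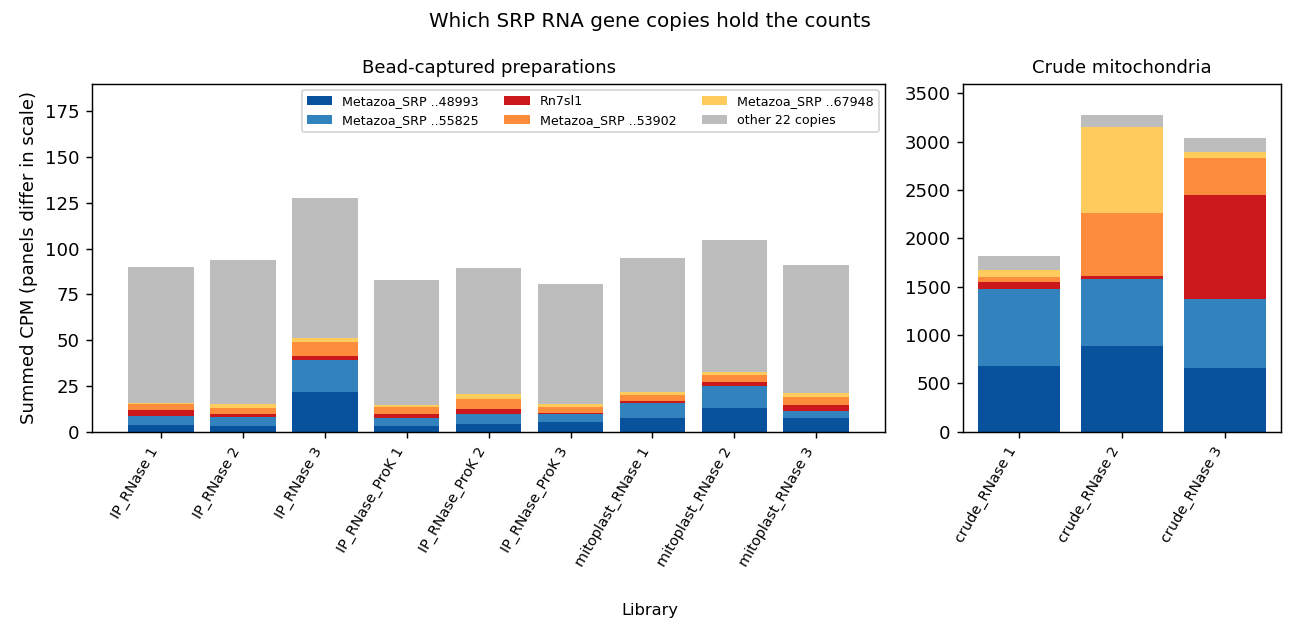
Summed CPM of SRP RNA genes in each library (y axis, with panels that differ in scale). Bars are split into the 5 copies most counted over all 12 libraries (colours) and the other 22 (grey). Grey makes up most of each bead-captured bar, whereas the coloured copies hold 92.5% to 96.3% of the counts in crude_RNase.

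A further 4 SRP RNA genes were lower by over 2 on the log2 scale in all 3 comparisons with crude_RNase, at 3 to 23 counts outside it and 19 to 108 counts in it. Metazoa_SRP ENSRNOG00000059449 had 12, 21 and 23 counts in IP_RNase, 20, 12 and 10 in IP_RNase_ProK and 23, 21 and 18 in mitoplast_RNase, against 108, 75 and 67 in crude_RNase, without overlap. Its log2 fold changes were −2.25 ± 0.224, −2.89 ± 0.236 and −2.29 ± 0.218 (SE; edgeR adjusted p = 1.03e-11 for IP_RNase). The others were ENSRNOG00000061297 (−3.27, −2.56 and −3.40), ENSRNOG00000060374 (−3.22, −3.25 and −3.40) and ENSRNOG00000060522 (−2.12, −2.07 and −2.01). When libraries were scaled on the 13 mitochondrial mRNAs instead, only the 5 most counted copies stayed lower than in crude_RNase. These 4 then had positive fold changes, called higher except ENSRNOG00000061297 and ENSRNOG00000060374 in IP_RNase (adjusted p = 0.428 and 0.448), as were 26435 to 26457 of all 26483 genes.

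Smaller differences were less firm. Metazoa_SRP ENSRNOG00000052862 had 11 to 30 counts in the bead-captured libraries and 24, 24 and 48 in crude_RNase, with log2 fold changes of −1.18, −1.19 and −1.01 (edgeR adjusted p = 0.0112, 0.00698 and 0.0292). Metazoa_SRP ENSRNOG00000063046 had 10 to 21 counts and 24, 25 and 31 in crude_RNase, and changed by −1.14, −1.06 and −1.15 (edgeR adjusted p = 0.0173, 0.0223 and 0.0135). ENSRNOG00000052862 lost its call in 4 of 14, 3 of 13 and 7 of 14 alternatives in these comparisons, and ENSRNOG00000063046 in 6 of 14, 5 of 13 and 6 of 14. Without crude_RNase 3 the changes were −0.69, −0.71 and −0.52 for ENSRNOG00000052862 (adjusted p = 0.280, 0.254 and 0.459) and −0.96, −0.87 and −0.97 for ENSRNOG00000063046 (adjusted p = 0.114, 0.146 and 0.109). Metazoa_SRP ENSRNOG00000068144 was the gene that rose: it had 6, 16 and 13 counts in IP_RNase, against 5, 2 and 4 in crude_RNase, a log2 fold change of 1.54 ± 0.489 (SE; edgeR adjusted p = 0.0451). With 1.32 and 1.35 it did not pass in IP_RNase_ProK (adjusted p = 0.109) or mitoplast_RNase (adjusted p = 0.107). Its call was lost in 9 of the 13 alternatives that gave a p-value, with adjusted p up to 0.248.

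The 13 SRP RNA genes tested and never called had a median of 17 counts (range 6 to 38) in the bead-captured libraries, against 15 (range 7 to 33) in crude_RNase. Raw counts of olfactory receptor genes, best known for their role in the nose, were also somewhat higher in bead-captured libraries. The median of 1117 such genes was 37 to 49 counts there and 30 to 34 in crude_RNase. The median of the uncalled SRP RNA genes thus lay below the olfactory receptor median in raw counts, with gene lengths not taken into account. What these low counts stem from was not tested.

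Among the bead-captured preparations, 0 of the 33 genes passed the test. In IP_RNase_ProK against IP_RNase edgeR called 0.14% of all genes, with 5 of the 33 at an unadjusted p under 0.05. In mitoplast_RNase against IP_RNase it called 0.155% of all genes, with 1 of the 33 at that level. In mitoplast_RNase against IP_RNase_ProK it called 0% of all genes, with 4 of the 33. The share of all genes at that unadjusted level was not worked out. The unadjusted counts therefore cannot be set against these percentages, which are for adjusted p. DESeq2 called 0 in all 3, but gave an adjusted p to 5 of the 33 in the first 2 comparisons and to all 33 in the last. Both most counted SRP copies had their lowest means in IP_RNase_ProK. ENSRNOG00000048993 averaged 4.25 ± 0.964 CPM in IP_RNase_ProK and 9.47 ± 10.4 in IP_RNase, and 9.35 ± 3.10 in mitoplast_RNase (SD, n = 3 each). IP_RNase_ProK differed from IP_RNase by −1.20 ± 0.374 for it and by −0.9998 ± 0.310 for ENSRNOG00000055825 (SE; edgeR adjusted p = 0.254 and 0.252). These differences rested on IP_RNase 3: without that library they were 0.27 and −0.08, and without IP_RNase 2 that of ENSRNOG00000048993 was −1.59 (adjusted p = 0.0358). Mitoplast_RNase differed from IP_RNase by 1.43 for ENSRNOG00000048993 without IP_RNase 3 (adjusted p = 0.0220), against −0.03 with it. Mitoplast_RNase differed from IP_RNase_ProK by 1.17 ± 0.367 for the same copy (edgeR adjusted p = 1.00; 0.00472 when only those 6 libraries were fitted). IP_RNase 3 also had the highest mitochondrial mRNA share of the bead-captured libraries, at 5.59%. Rpph1, the nuclear RNase P RNA, had 33, 22 and 68 counts in IP_RNase, 34, 40 and 17 in IP_RNase_ProK and 44, 76 and 49 in mitoplast_RNase, against 1987, 1071 and 995 in crude_RNase. As with SRP RNA, mitoplast_RNase 2 and IP_RNase 3 were the highest bead-captured libraries for it. The part of carried-over crude material in these 2 libraries was not tested.

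Y RNA genes were close to the limit of counting in every preparation. Their 18 rows summed to 101 to 122 counts in IP_RNase, 120 to 139 in IP_RNase_ProK and 125 to 143 in mitoplast_RNase, against 129 to 169 in crude_RNase. The direction of the family depended on the scale: 25.8 ± 1.84, 26.7 ± 2.74 and 27.9 ± 1.83 CPM in the bead-captured groups lay below the 36.4 ± 1.74 CPM of crude_RNase (SD, n = 3 each), whereas shares of all counts lay above it. These shares were 0.00302% ± 0.000103, 0.00327% ± 0.000328 and 0.00339% ± 0.000239, against 0.00211% ± 0.000402 in crude_RNase. With all genes named Mt- or AY172581 (the mitochondrial mRNA, rRNA and tRNA genes) left out of the total, the shares lay below crude_RNase again, at 0.00324%, 0.00336% and 0.00350%, against 0.00416%. The single gene ENSRNOG00000060430 weighed on these sums. It averaged 7.27 ± 2.24 CPM in crude_RNase (SD, n = 3), against 0.783, 1.19 and 1.175 CPM in IP_RNase, IP_RNase_ProK and mitoplast_RNase. The direction of the family without this gene was not worked out.

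Of the 7 tested Y_RNA genes, 1 fell in all 3 comparisons. ENSRNOG00000060430 had 2, 3 and 5 counts in IP_RNase, 9, 5 and 4 in IP_RNase_ProK and 12, 3 and 2 in mitoplast_RNase, against 41, 18 and 28 in crude_RNase, with no overlap. Its log2 fold changes were −3.18 ± 0.443, −2.57 ± 0.389 and −2.62 ± 0.394 (SE; edgeR adjusted p = 1.87e-07, 1.23e-06 and 1.16e-06). It kept its call in each comparison under every alternative that gave a p-value except scaling on mitochondrial mRNAs, where its fold changes were positive. The other 6 held 4 to 22 counts in bead-captured libraries and 5 to 20 in crude_RNase.

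Of these, ENSRNOG00000061591 had 11, 5 and 8 counts in IP_RNase, 11, 20 and 18 in IP_RNase_ProK and 19, 16 and 17 in mitoplast_RNase, against 18, 12 and 20 in crude_RNase. The IP_RNase libraries lay below all crude ones, but the difference of −1.16 ± 0.385 missed the threshold (SE; edgeR adjusted p = 0.0592). ENSRNOG00000058165 had 9 to 22 counts against 11 to 13 in crude_RNase, ENSRNOG00000059739 9 to 21 against 10 to 15, and ENSRNOG00000058936 8 to 15 against 7 to 15. For these 3 the groups overlapped, except that mitoplast_RNase and IP_RNase_ProK lay above crude_RNase for ENSRNOG00000058165, with 19 to 20 and 15 to 17 counts. In CPM this held for mitoplast_RNase only. Their log2 fold changes ran from −0.38 to 0.41, with SEs of 0.333 to 0.387, and none passed the test against crude_RNase.

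The vault RNA gene ENSRNOG00000052373 had 11, 12 and 13 counts in IP_RNase, 15, 14 and 13 in IP_RNase_ProK and 15, 12 and 18 in mitoplast_RNase, against 21, 14 and 13 in crude_RNase. Raw counts of the groups overlapped. In CPM, 2.56 to 2.97 in IP_RNase and 2.67 to 3.10 in IP_RNase_ProK lay below the 3.63 to 4.70 of crude_RNase, while mitoplast_RNase overlapped it with 2.35 to 3.93. Its log2 fold changes were −0.52 ± 0.337, −0.51 ± 0.326 and −0.38 ± 0.322 (SE; edgeR adjusted p = 0.456, 0.439 and 0.615). Differences of that size did not pass the test at this depth. Mean CPM was 2.83 ± 0.239, 2.85 ± 0.223 and 3.14 ± 0.790 in the bead-captured groups and 4.02 ± 0.587 in crude_RNase (SD, n = 3 each). As for Y RNA, its direction turned with the total: the share of all counts was higher outside crude_RNase, but with genes named Mt- or AY172581 left out it was 0.000356%, 0.000358% and 0.000393%, against 0.000460% in crude_RNase.

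**Figure D4:**
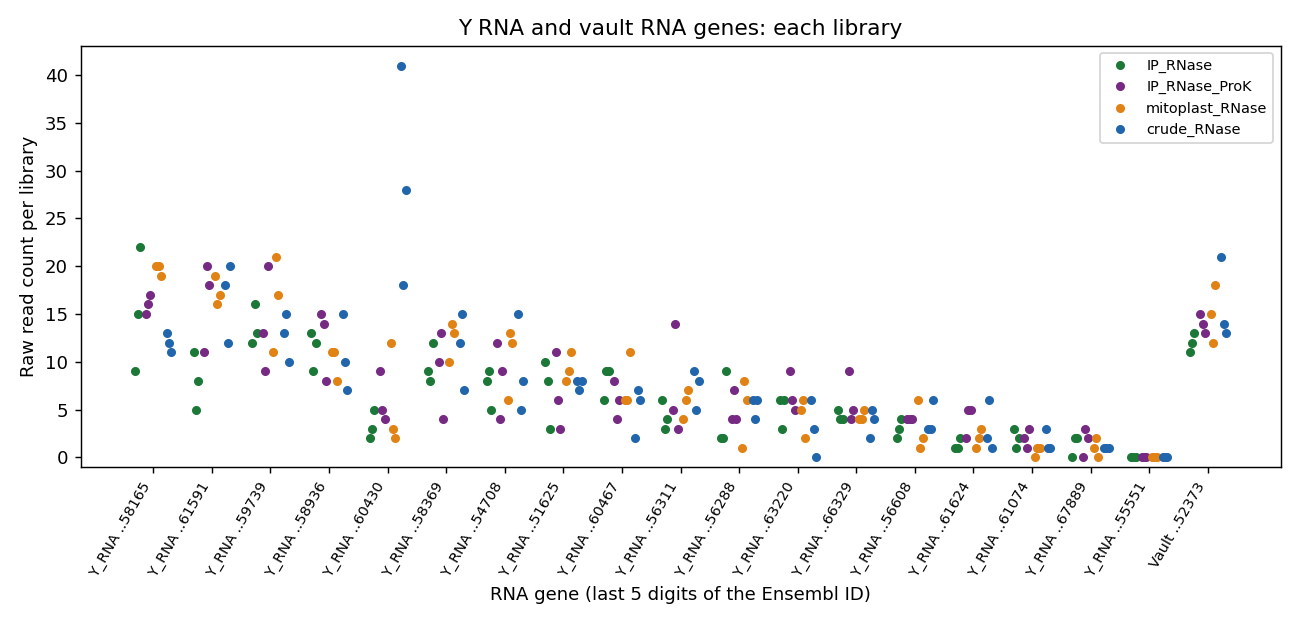
Raw read counts of the 18 Y_RNA genes and the Vault gene (y axis), each point 1 library, with IP_RNase, IP_RNase_ProK and mitoplast_RNase left of crude_RNase. Apart from ENSRNOG00000060430, at 18 to 41 counts in crude_RNase and 2 to 12 elsewhere, all counts lie at 22 or below, and groups overlap for most genes.

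The mRNAs of the proteins that bind these RNAs moved far less than SRP RNA. All 18 partner genes found in the table were tested: 7 of SRP and its receptor, 7 of the 7SK complex, Ro60 and Ssb (La), and Mvp and Tep1 of the vault. Against crude_RNase, edgeR called 3 lower in IP_RNase, 1 lower in IP_RNase_ProK and 0 in mitoplast_RNase, where 5.11%, 5.03% and 4.54% of all genes were lower; 1 of 18 is near that background. In mitoplast_RNase 5 had an unadjusted p under 0.05 and DESeq2 called 0. None was higher, whereas all 18 were higher in each comparison when libraries were scaled on library size alone, which moves the median of all genes by 1.03 to 1.08 and calls 25084 to 25223 of the 26483 genes higher. The medians of the 18 were −0.21, −0.13 and −0.14 on the log2 scale. Every partner lay between −0.53 and 0.24 in the 3 comparisons. Among the bead-captured preparations 0 were called, with 2 at an unadjusted p under 0.05 between IP_RNase_ProK and IP_RNase, 0 between mitoplast_RNase and IP_RNase, and 1 between mitoplast_RNase and IP_RNase_ProK. DESeq2 called 0 there too, with an adjusted p for 1, 1 and 18 of them. For the partner counts at an unadjusted p, the share of all genes at that level was not worked out either.

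Cdk9, the kinase restrained by 7SK, had a mean of 26.3 ± 1.68 CPM in IP_RNase, against 37.0 ± 5.67 CPM in crude_RNase (SD over 3 libraries). It fell by 0.50 on the log2 scale (SE 0.119; edgeR adjusted p = 0.00294). Hexim1, the inhibitor through which 7SK acts on Cdk9, averaged 22.3 ± 3.15 CPM in IP_RNase and 30.6 ± 1.01 in crude_RNase, a log2 fold change of −0.46 ± 0.126 (adjusted p = 0.0147). Mvp, the vault shell protein, averaged 34.0 ± 2.66 and 42.8 ± 1.11 CPM, a change of −0.33 ± 0.102 (adjusted p = 0.0351). Without IP_RNase 1 the counts of called partners went down to 1, with adjusted p of 0.169 for Hexim1. Mvp kept its call in 5 of 15 alternatives. The part of the change in mitochondrial mRNA share in these small differences was not tested.

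In IP_RNase_ProK the called partner was Srp68, a protein of the SRP core, with 46.2 ± 2.19 CPM against 59.6 ± 6.30 in crude_RNase (SD, n = 3 each). Its log2 fold change was −0.36 ± 0.0941 (SE; edgeR adjusted p = 0.00867), and it lost the call without crude_RNase 3 (adjusted p = 0.0723) and without IP_RNase_ProK 1. Srpra, the receptor subunit that docks SRP at the endoplasmic reticulum, averaged 41.9 ± 1.36, 43.05 ± 4.235 and 42.7 ± 2.82 CPM in IP_RNase, IP_RNase_ProK and mitoplast_RNase, against 43.4 ± 1.55 in crude_RNase, with log2 fold changes of −0.05, −0.01 and −0.02 and no call. Tep1, the telomerase-associated vault protein and the most counted partner, averaged 142 ± 9.09, 149.9 ± 4.07 and 146 ± 6.44 CPM in IP_RNase, IP_RNase_ProK and mitoplast_RNase, against 149 ± 0.989 in crude_RNase. Ccnt2, a cyclin that pairs with Cdk9, averaged 46.5 ± 1.85, 48.7 ± 3.54 and 47.2 ± 5.45 CPM in these groups and 51.1 ± 3.37 in crude_RNase, with no call.

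**Figure D5:**
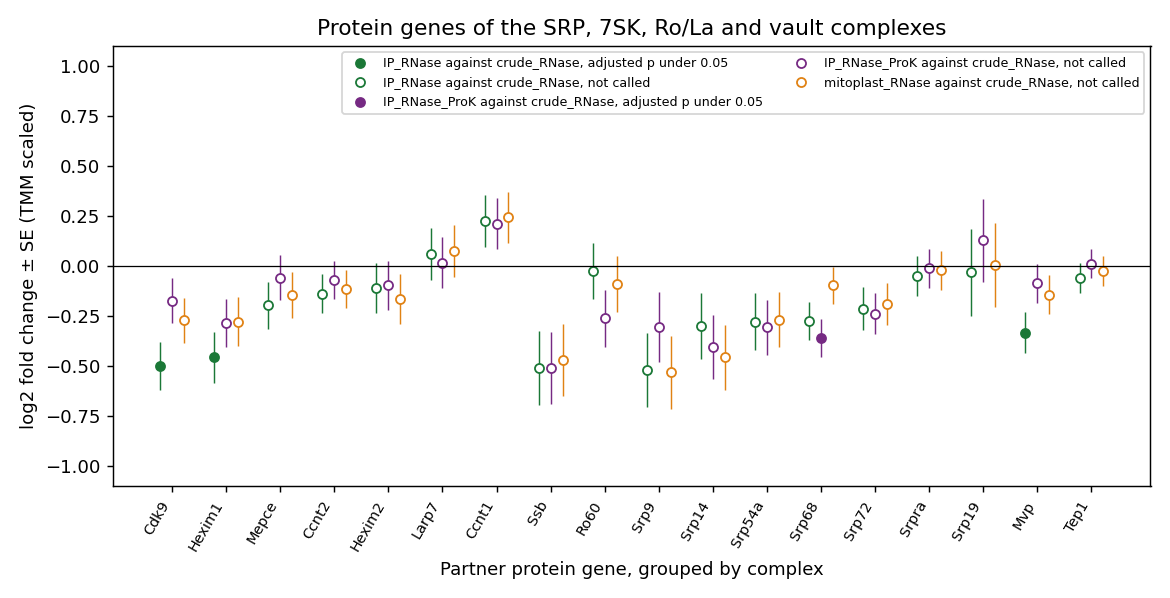
Log2 fold change against crude_RNase (y axis, with SE bars) of the 18 partner protein genes (x axis, grouped by complex) in IP_RNase, IP_RNase_ProK and mitoplast_RNase; filled points have an adjusted p under 0.05. All values lie between −0.53 and 0.24, and 4 points are filled: Cdk9, Hexim1 and Mvp in IP_RNase, and Srp68 in IP_RNase_ProK.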

How the data were processed

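Whole-number read counts per Ensembl gene were deposited, not normalised, in 1 table of 12 libraries, with 0 columns of other samples. Per the submitters' processing notes, FastQC 0.74, cutadapt 4.6, STAR 2.7.11a and HTSeq were used with mRatBN7.2; the sources used here do not give the annotation release, strand setting or handling of multiply mapped reads. Source and tissue labels of the crude libraries name immunoprecipitation; titles and the design text, which name crude mitochondria, were followed. No pair of libraries of the same group matched within sampling noise. Pairs from different groups were not compared.

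Genes passing filterByExpr (minimum count 10; 26483 genes, 86.7%) entered the quasi-likelihood F test of edgeR 4.0.16 (R 4.3.3), with TMM scaling and 1 model of 4 groups. P-values were Benjamini-Hochberg adjusted over all genes in each of 6 contrasts, with a threshold of 0.05. The test was checked on simulated counts. TMM factors were 1.12 to 1.23 in bead-captured libraries and 0.526 to 0.679 in crude_RNase. The SE is the absolute log2 fold change over the square root of F; its dispersion is moderated over genes, so it can be smaller than a gene's own spread implies. Floors cover counting error only.

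Genes and lists were chosen with earlier results of these data known. Named genes had a mean of at least 10 counts and were the 4 most counted per family or called in any contrast. ENSRNOG00000068144 (mean 9.67 counts), ENSRNOG00000055551, Rpph1 and unnamed class summaries were added after values were seen. Partner genes were named when called or among the 4 most counted. Alternatives were library-size, size-factor, olfactory receptor and mitochondrial mRNA scaling, DESeq2 1.42.0, other filters, a replicate block, fits of 6 libraries and leaving out each library.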

Additional observations from a re-analysis of the deposited data

How the results depend on the processing

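Scaling mattered most. Against crude_RNase, in the order IP_RNase, IP_RNase_ProK and mitoplast_RNase, 13, 12 and 12 RNA genes were called. Library size alone, which moved the median of all genes by 1.03, 1.08 and 1.07 on the log2 scale, gave 24 (10 lower, 14 higher), 27 (10 and 17) and 26 (10 and 16), where 25084, 25222 and 25223 of the 26483 genes tested were higher. Fold changes turned positive for ENSRNOG00000061591 (0.73 and 0.83 in IP_RNase_ProK and mitoplast_RNase), ENSRNOG00000059739 (0.89 in IP_RNase_ProK), ENSRNOG00000058936 (0.99 and 0.95 in IP_RNase and IP_RNase_ProK), the vault gene (0.68 in mitoplast_RNase), and, without passing the test, for ENSRNOG00000052862 (0.068 in mitoplast_RNase, adjusted p = 0.823) and ENSRNOG00000063046 (0.023 in IP_RNase_ProK, adjusted p = 0.943). Scaling on mitochondrial mRNAs called 19 and 26 higher in IP_RNase_ProK and mitoplast_RNase against IP_RNase, where 24889 and 24728 of the 26483 genes were. Against crude_RNase it had a median shift of 3.81, 4.95 and 4.93 and gave 30 (5 lower), 33 (5 lower) and 33 (5 lower). There 26435, 26457 and 26456 of all genes were higher. Reversed under it, in the same order, were ENSRNOG00000061591 (2.50, 4.56 and 4.66), ENSRNOG00000058936 (3.66, 4.795 and 4.48), the vault gene (3.19, 4.39 and 4.53), ENSRNOG00000059449 (1.48, 2.04 and 2.60), ENSRNOG00000061297 (0.38, 2.33 and 1.47), ENSRNOG00000060522 (1.65, 2.82 and 2.88), ENSRNOG00000060374 (0.44, 1.63 and 1.45), ENSRNOG00000060430 (0.40, 2.31 and 2.21), ENSRNOG00000052862 (2.58, 3.76 and 3.89) and ENSRNOG00000063046 (2.60, 3.88 and 3.80). ENSRNOG00000059739 was reversed in IP_RNase_ProK (4.72), and in mitoplast_RNase against IP_RNase ENSRNOG00000048993 (1.41; −0.42 to 1.43 with 1 library left out, 1.43 being without IP_RNase 3) and ENSRNOG00000055825 (1.12). Against 3, 1 and 0 partners called lower, 18 were called higher in all 3 comparisons under library size and under mitochondrial mRNA scaling. Against IP_RNase, the latter also called 18 higher in IP_RNase_ProK and in mitoplast_RNase, where 24889 and 24728 of all genes were. Olfactory receptor scaling, with a median shift of −0.21, −0.12 and −0.11, called 12, 3 and 3 partners lower. Under it 4475, 1984 and 1758 of the 26483 genes were lower.

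A mean of at least 50 counts left 5, 5 and 5 RNA genes called, since fewer were tested. DESeq2 called 10, 8 and 10 of the 20, 9 and 33 to which it gave an adjusted p, and 1 partner in IP_RNase. Fitting only the 6 libraries compared gave 1 call in mitoplast_RNase against IP_RNase_ProK, against 0. Leaving out 1 library gave 10 to 13, 10 to 12 and 10 to 12 RNA genes, and 0 to 1 in IP_RNase_ProK and in mitoplast_RNase against IP_RNase. For partners it gave 1 to 4, 0 to 3 and 0 to 1. With the mitochondrial mRNAs left out of the total, the crude_RNase share was 0.206% for SRP RNA, 0.00283% for Y RNA and 0.000316% for vault RNA, and that of Y RNA in IP_RNase 0.00315%. Leaving out all genes named Mt- or AY172581, chosen after seeing the data, gave 0.309%, 0.00416%, 0.000460% and 0.00324%. The replicate block left 12, 12 and 12 RNA genes called; ENSRNOG00000068144 lost its call (1.52, adjusted p = 0.0565). Libraries with the same number are not stated to be paired, and their deviations from group means correlated at −0.108 to 0.0709. Such deviations carry counting noise, so they do not settle whether libraries were paired. The causes of these changes were not tested.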
